A study of Mus musculus with 2 samples.

Results

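Late condensed spermatids were defined in single-cell RNA sequencing of testes from adult mice as cells rich in Prm2 RNA and poor in Tnp1 RNA. The study compared 1 library from an Nsun7 KO testis with 1 library from a WT testis, and Nsun7 encodes a member of the NSUN family of RNA cytosine methyltransferase-like proteins. Both testes were dissociated with enzymes, strained, passed through a lysis buffer and washed before droplet library preparation with the DNBelab C series system. The strain, the deleted part of Nsun7 and the number of animals behind each library are not stated in the sources available here. A member had 200 or more detected genes, at most 5% of its counts from mitochondrially encoded (mt-) genes, at least 5% of its counts from Prm2 and under 1% from Tnp1. This rule took 2236 cells of the Nsun7 KO library and 2348 cells of the WT library, 4584 of 33213 barcodes in all. Each barcode was taken as a cell. The cells were chosen by Prm2 and Tnp1 values, so those values are a description of the choice. Each genotype has 1 library, so differences between them have no replicate check and no test, and 95% intervals cover counting error only.

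In the last steps of sperm formation in the mouse, histones in the spermatid nucleus give way first to transition proteins (Tnp1 and Tnp2) and then to protamines (Prm1 and Prm2). The genes are transcribed in round spermatids, transcription stops as the nucleus condenses, and the stored mRNAs are translated days later in elongating and condensed cells. What a condensed spermatid holds is therefore a shrinking stock of mRNAs made earlier, many of them for the tail: outer dense fibres, fibrous sheath, mitochondrial sheath and sperm-type glycolysis. Levels are given as CPM, the summed counts of a class of cells scaled to a total of 1000000, and as these are not divided by transcript length they are compared between cells and not between genes.

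The 200 bases before the RefSeq start of 4 nuclear protein genes are shown from GRCm38.p6, all on the minus strand. Of these genes, Prm2 and Tnp1 are used by the rule, and Prm1 and Tnp2 are not. Capitals mark a match to TGANNTCA, a cAMP-response-type motif searched on both strands, or to TATATA, searched on the gene's own strand together with TATAAA. Prm1 lies at chr16:10796824-10797023 with its match 64 bases before the start, Prm2 at chr16:10792106-10792305 with its match at 29 bases, Tnp1 at chr1:73015900-73016099 with its match at 94 bases, and Tnp2 at chr16:10788656-10788855 with its match at 35 bases.
Prm1: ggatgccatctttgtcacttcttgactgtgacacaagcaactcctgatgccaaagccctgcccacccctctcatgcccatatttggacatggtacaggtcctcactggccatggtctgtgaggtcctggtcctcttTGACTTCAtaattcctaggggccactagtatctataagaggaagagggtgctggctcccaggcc
Prm2: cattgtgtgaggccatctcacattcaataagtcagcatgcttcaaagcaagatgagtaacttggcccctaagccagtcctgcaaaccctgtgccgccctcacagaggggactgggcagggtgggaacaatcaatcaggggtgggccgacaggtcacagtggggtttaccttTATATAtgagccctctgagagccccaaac
Tnp1: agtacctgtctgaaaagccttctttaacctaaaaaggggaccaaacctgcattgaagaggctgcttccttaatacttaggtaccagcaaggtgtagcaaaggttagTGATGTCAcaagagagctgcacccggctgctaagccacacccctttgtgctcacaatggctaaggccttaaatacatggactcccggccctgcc
Tnp2: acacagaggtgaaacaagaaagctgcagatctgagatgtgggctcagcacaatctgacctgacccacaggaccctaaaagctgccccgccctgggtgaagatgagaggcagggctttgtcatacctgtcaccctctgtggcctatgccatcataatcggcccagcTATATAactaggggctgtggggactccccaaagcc
TGANNTCA was present in 11.6% and TATAAA or TATATA in 11.2% of the same windows of 27025 genes. Prm1, Prm2 and Tnp2 are neighbours on chromosome 16. Members are chosen and ordered below by Prm2, so its course cannot be set against those of its neighbours. Prm1 and Tnp2 RNAs were both lower in members with the highest Prm2 shares than in those with the lowest, in both libraries. The fall was larger for Prm1.

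Late condensed spermatids made up 19.1% of the 11725 kept Nsun7 KO cells (interval 18.4 to 19.8%) and 19.98% of the 11751 kept WT cells (19.3 to 20.7%), kept cells being those that passed the gene and mt- limits. The cells most like them, with Prm2 at 5% or more and Tnp1 at 1% or more, are called Tnp1-high cells below, and these numbered 1546 in the Nsun7 KO library and 346 in the WT library. Of all Prm2-rich cells, late condensed spermatids were 59.1% (57.5 to 60.7%) in the Nsun7 KO library and 87.2% (85.8 to 88.4%) in the WT library. The libraries thus held late cells in like shares and differed in the Tnp1-high cells, 13.2% of kept Nsun7 KO cells and 2.94% of kept WT cells. Tnp1-high cells lay close to the 5% Prm2 limit, with a median Prm2 share of 5.58% in Nsun7 KO and 5.55% in WT. Their number therefore depends on where that limit is set, and no limit under 5% was tried. With mt- genes allowed up to 20%, the share of late cells was higher in Nsun7 KO, by 0.835 percentage points. With Prm2 at 10% or more as the limit, few Tnp1-high cells were left, and late cells were 99.18% of Prm2-rich cells in Nsun7 KO and 99.13% in WT, so that limit does not measure the gap. Whether this gap comes from the genotype, the animal or the preparation cannot be told apart with 1 library each.

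**Figure D1:**
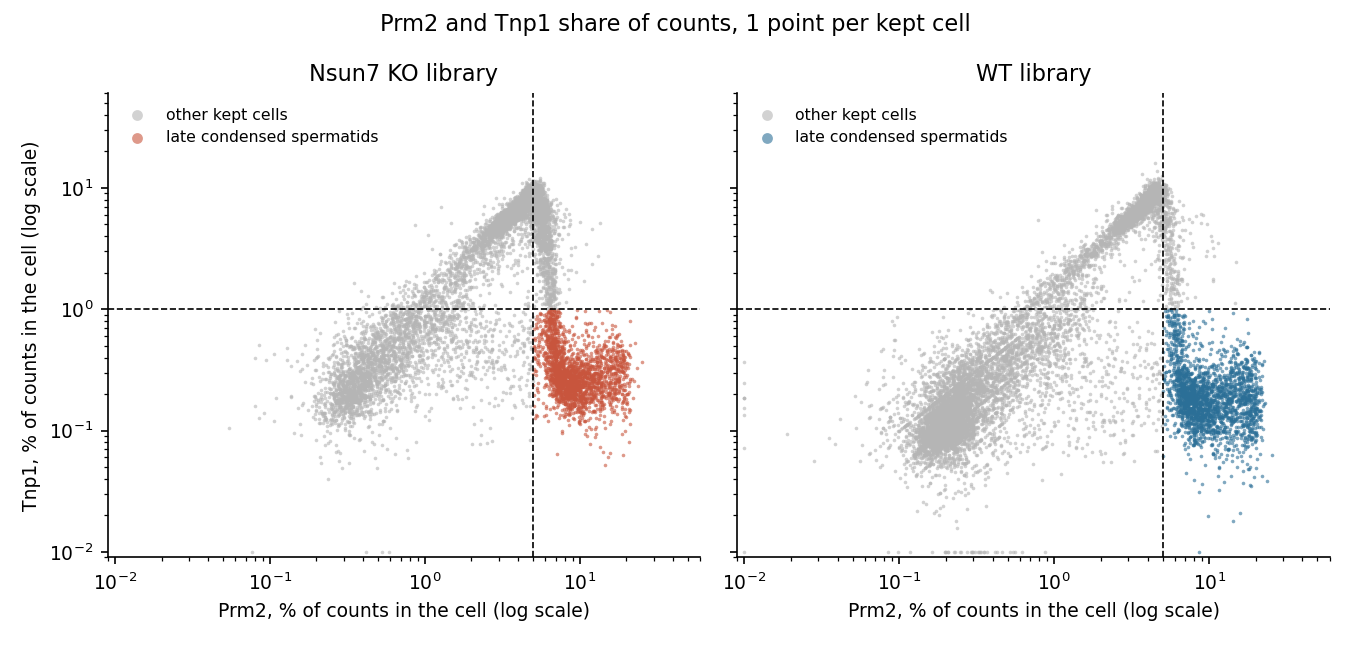
Each point is 1 kept cell, with the share of its counts from Prm2 on the x axis and from Tnp1 on the y axis, both on log scales and in percent, in the Nsun7 KO library (left) and the WT library (right). Coloured points right of 5% Prm2 and below 1% Tnp1 are the 2236 Nsun7 KO and 2348 WT late condensed spermatids, and the 4 Nsun7 KO and 36 WT cells with no Tnp1 count are drawn at 0.01%. The members lie below an arm of cells with Prm2 near 5% that runs down from high Tnp1, and they extend to 25.2% Prm2 in the Nsun7 KO library and 25.4% in the WT library.

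The members held a median of 10180.5 counts and 1853.5 genes in the Nsun7 KO library and 7942.5 counts and 1741.5 genes in the WT library. Tnp1-high cells held more, with medians of 16811.5 counts in the Nsun7 KO library and 14027 in the WT library. After each cell was thinned to 1000 counts, which every cell reached, a late cell showed a median of 473 genes in the Nsun7 KO library and 487 in the WT library, against 485 and 510 in Tnp1-high cells of the same libraries. Doublet calls covered 3.62% of Nsun7 KO members and 3.88% of WT members. The library totals were 210531446 counts in Nsun7 KO and 220247156 in WT, of which the members held 24928093 and 22505242. Mt- genes gave a median of 0.15% of a member's counts in Nsun7 KO and 0.19% in WT. Few genes held much of the RNA: 102 genes made up 50% of the members' counts in Nsun7 KO and 109 in WT.

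The label was set beside the markers given for these cells, while nuclear shape was not measured. The cells and their markers were chosen with earlier results of these data known, so the marker levels describe the cells and do not test the label. Prm2, 1 of the 6, is used by the rule, so its level says nothing about the label. The other 5, Odf1, Spem1, Bpifa3, Spata3 and Ubl4b, were 1.63 to 1.95 times higher in members than in Tnp1-high cells of both libraries. Of 1697 genes averaging 50 CPM or higher, 12.4% were at least 1.5-fold higher in both. Odf1, an outer dense fibre protein of the tail (chromosome 15, 38219203 to 38226735, plus strand), stood at 10157 CPM in Nsun7 KO and 9713 CPM in WT members, against 5208 and 4995 CPM in the Tnp1-high cells of those libraries. Spem1, which the mouse needs to shed the spermatid's cytoplasm, stood at 2777 CPM in Nsun7 KO and 2587 CPM in WT members, against 1708 and 1579 CPM in Tnp1-high cells. Ubl4b, a ubiquitin-like protein of the testis, stood at 2151 CPM in Nsun7 KO and 2529 CPM in WT members, against 1293 and 1443 CPM. Spata3 stood at 4371 and 3988 CPM in members, and Bpifa3 at 614 and 621 CPM.

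Free RNA from broken cells gives counts in cells that do not express a gene, so levels were also read in cells that should lack spermatid RNA. Leydig-gene-rich cells, the steroid-making cells of the interstitium, numbered 338 in Nsun7 KO and 315 in WT with median depths of 14162 and 10402 counts. They had a Bpifa3 count, after thinning to 1000 counts, in 1.48% of Nsun7 KO and 1.90% of WT cells, against 46.1% of members in each library (95.1% and 95.0% of members unthinned). Odf1 was found in 28.7% of thinned Nsun7 KO and 18.1% of thinned WT Leydig-gene-rich cells, against 100% and 99.9% of members. Conversely, 6 Leydig genes summed to 51.3 CPM in Nsun7 KO members and 48.8 CPM in WT members, which is 6.16% and 8.19% of their level in the whole library. These percentages, taken of each gene's library level, serve below as the free RNA estimate. Marker lists of other cell types gave higher percentages in members. Sertoli genes stood at 20.7% of their library level in Nsun7 KO and 23.1% in WT, spermatocyte genes at 18.3% and 12.8%. Stromal and myoid genes stood at 21.1% and 44.1%. The estimate thus depends on the list chosen, and subtraction with another list was not tested.

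Markers of spermatogonia, spermatocytes and somatic cells summed to at most 223 CPM, and those of round spermatids to more. Summed over 6 markers each, spermatocyte genes stood at 88.8 CPM in Nsun7 KO and 223 CPM in WT members, spermatogonial genes at 24.3 and 34.0 CPM, Sertoli genes at 122 and 178 CPM, and stromal and myoid genes at 18.0 and 50.7 CPM. Endothelial genes (4 markers) reached 2.37 CPM in Nsun7 KO, where Cdh5 was at 0, and 3.24 CPM in WT. Macrophage genes summed to 63.3 CPM in Nsun7 KO and 71.8 CPM in WT, of which C1qb gave 46.9 and 49.5 CPM. The sums were 90.2% of the level of these genes in the whole Nsun7 KO library and 99.7% of that in WT. Over the whole libraries C1qb stood at 25.3 CPM in Nsun7 KO and at no more than 19.8 CPM in WT. Why C1qb was higher in members was not tested. Of the round spermatid markers, which summed to 1657 CPM in Nsun7 KO and 1926 CPM in WT, the kinase gene Tssk3 gave 1621 and 1860 CPM. In Tnp1-high cells the round spermatid markers summed to 964 CPM in Nsun7 KO and 1087 CPM in WT. Over the whole libraries they stood at 954 and 922 CPM. Tssk3 gave 921 and 1029 CPM of these sums in Tnp1-high cells, and 722 and 459 CPM over the whole libraries. The higher sum in members was thus that of Tssk3. The other markers gave a smaller part of it than over the whole libraries.

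The 4 nuclear protein RNAs differed in how far members departed from Tnp1-high cells. Prm2 made up 9.06% of all counts of Nsun7 KO members and 9.77% of those of WT members, against 5.74% and 5.81% in Tnp1-high cells. Prm1 made up 5.85% in Nsun7 KO and 4.04% in WT members, against 9.31% and 8.73% in Tnp1-high cells. Members thus held 0.65 Prm1 counts per Prm2 count in Nsun7 KO and 0.41 in WT, against 1.62 and 1.5 in Tnp1-high cells. In single members the Prm1 share spanned 0.15 to 15.8% of counts with a median of 2.94% in Nsun7 KO, and 0.0448 to 16.4% with a median of 1.962% in WT.

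The transition protein RNAs were set beside free RNA. Tnp1 stood at 3407 CPM in Nsun7 KO and 2213 CPM in WT members. Summed over the Leydig-gene-rich cells it stood at 3538 CPM in Nsun7 KO and 2683 CPM in WT, above the members as a whole. By the median cell the order was the reverse. The median Tnp1 share was 0.162% in Nsun7 KO and 0.102% in WT Leydig-gene-rich cells, against 0.284% and 0.183% in members. Single Leydig-gene-rich cells reached 5.54% in Nsun7 KO and 4.58% in WT, which raises their sums. The free RNA estimate of Tnp1 in members was lower than either sum, 2650 CPM in Nsun7 KO and 1567 CPM in WT. Members with Prm2 at 5 to 7.5% held 4496 CPM of Tnp1 in Nsun7 KO and 3072 CPM in WT, above both measures in each library. The other ranges, at 2547 to 2794 CPM in Nsun7 KO and 1714 to 1747 CPM in WT, lay below the summed level of the Leydig-gene-rich cells. Against the free RNA estimate over all members, those of WT lay above 1567 CPM. Those of Nsun7 KO lay on both sides of 2650 CPM. By the median Tnp1 share, each of these ranges lay above the Leydig-gene-rich cells of its library. The measures thus differ on whether Tnp1 in these ranges exceeds free RNA. Tnp2 stood at 4430 CPM in Nsun7 KO and 2772 CPM in WT members, against 2152 and 1645 CPM in Leydig-gene-rich cells and free RNA estimates of 1436 and 807 CPM.

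Near the thresholds the change was gradual for Tnp1 and less so for Prm2. The 78 Nsun7 KO and 36 WT members with Tnp1 at 0.8 to 1% had median Prm1 shares of 11.0% and 10.1%, against 11.2% and 11.0% in the 36 Nsun7 KO and 17 WT cells with Tnp1 at 1 to 1.2%. Members with Prm2 at 5 to 6% numbered 91 in Nsun7 KO and 138 in WT, with median Prm1 shares of 3.27% and 9.26%. Just outside, at 4 to 5% Prm2 with Tnp1 under 1%, lay 55 Nsun7 KO and 41 WT cells with median Prm1 shares of 0.787% and 0.560% and median totals of 2833 and 6063 counts.

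Within the members, the Prm1 share was lower the higher the Prm2 share. Across Prm2 ranges of 5 to 7.5%, 7.5 to 10%, 10 to 15% and 15% or more, the Nsun7 KO library held 714, 676, 541 and 305 members and the WT library 673, 649, 547 and 479. Prm1 made up 9.27%, 4.86%, 1.88% and 0.766% of counts over these ranges in Nsun7 KO and 7.44%, 3.31%, 1.36% and 0.526% in WT. Prm1 counts per Prm2 count were 1.38, 0.57, 0.16 and 0.04 in Nsun7 KO and 1.14, 0.39, 0.11 and 0.03 in WT. Both libraries ran the same course, with Prm1 higher in Nsun7 KO in each range. In the top range the free RNA estimate of Prm1 was 3700 CPM in Nsun7 KO and 1784 CPM in WT, against 7662 and 5259 CPM measured.

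The total count per cell shrank along the same ranges, with medians of 13964.5, 10846.5, 7221 and 4924 counts in Nsun7 KO and 10392, 8497, 6333 and 4787 in WT. The order of ranges is that of Prm2 share, part of the rule, and depth moves with it. Its part in the trends was not tested. Doublet calls covered 6.16% of members in the lowest range and 0% in the highest in Nsun7 KO, and 6.69% and 0.209% in WT. Leydig genes stood at 45.4, 54.2, 57.0 and 58.2 CPM in Nsun7 KO and 52.0, 44.9, 49.1 and 48.7 CPM in WT.

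**Figure D2:**
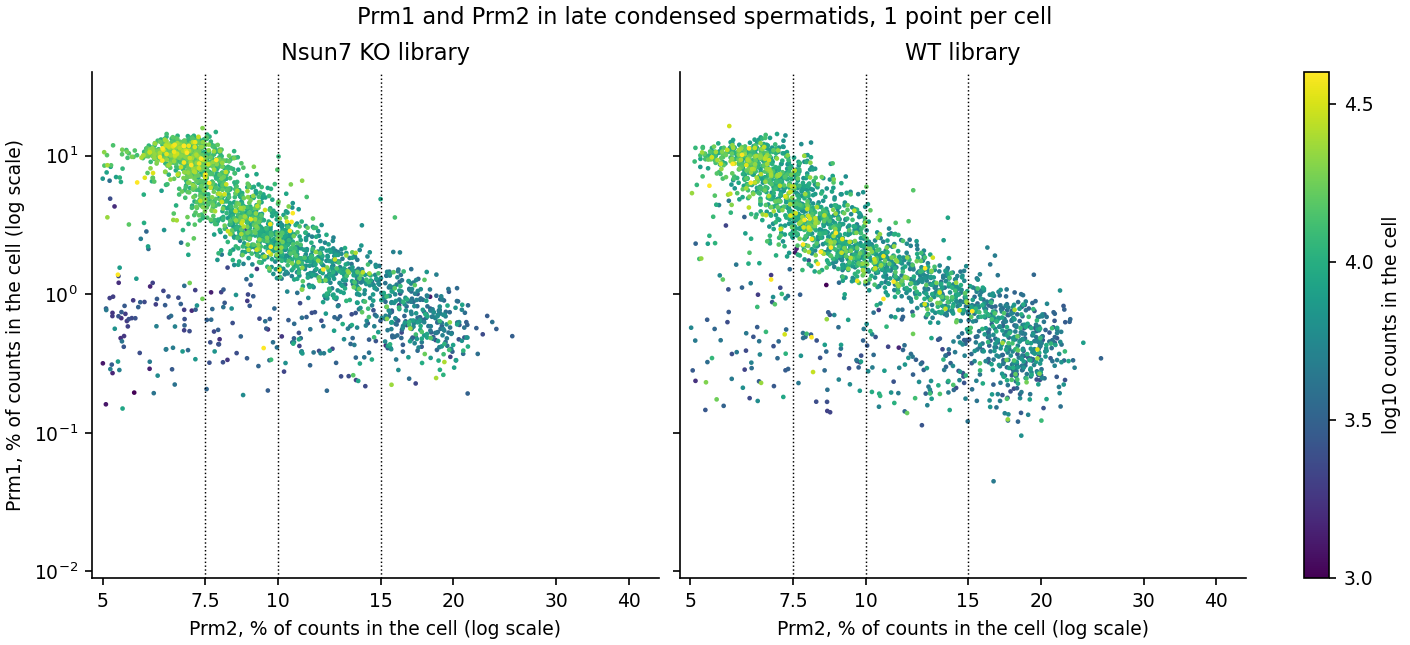
Each point is 1 late condensed spermatid, with the Prm2 share of counts on the x axis and the Prm1 share on the y axis, both in percent on log scales, and its colour gives log10 of its counts. Nsun7 KO is left and WT right, and dotted lines mark the range limits at 7.5, 10 and 15%. Most cells lie on 1 band on which Prm1 falls as Prm2 rises, with the deepest cells at its upper left end.

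A small group lay off this band, with Prm2 at 5 to 7.5% and Prm1 under 1%: 66 cells in Nsun7 KO and 50 in WT. They were shallow, with medians of 2785 counts in Nsun7 KO and 3726 in WT. Odf1 stood at 20569 CPM in these Nsun7 KO cells and 10838 CPM in the WT ones, and Oaz3 at 33575 and 17865 CPM. Spem1 was at 772 CPM in Nsun7 KO and 1056 CPM in WT, below its level over all members. Doublets were called for 4 of the Nsun7 KO and 14 of the WT cells, and spermatocyte markers summed to 263 and 1467 CPM. Stromal and myoid markers summed to 250 CPM in the Nsun7 KO and 526 CPM in the WT cells of this group. The part of mixed barcodes in it was not tested.

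Late cells at the Prm2-rich end held a wide set of RNAs at lower levels, and a few, among them Aldoa, Gapdhs and Oaz3, at higher levels, than cells at the Prm2-poor end. Between members with Prm2 at 15% or more and members with Prm2 at 5 to 7.5%, 473 of 1534 genes averaging 50 CPM or higher were 2-fold or more lower in both libraries (30.8%), and 44 were at least 2-fold higher in both (2.87%). These ratios add a prior of 5 CPM. With trimmed mean scaling of the same sums the split was 371 lower and 158 higher. Shares sum to a whole, so a gene whose molecules are lost more slowly than average is higher in CPM, and a higher level here does not show new RNA.

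With predicted, mt- and ribosomal protein genes left out, the highest ratio belonged to Aldoa, a glycolytic aldolase. It stood at 1033 CPM in Nsun7 KO and 1108 CPM in WT cells of the top range, against 336 and 360 CPM in the lowest, 3.08 times higher in each library (intervals 2.91 to 3.26 and 2.93 to 3.24). Gapdhs, the sperm form of glyceraldehyde-3-phosphate dehydrogenase bound to the fibrous sheath, stood at 17082 CPM in Nsun7 KO and 15874 CPM in WT, against 6877 and 6341 CPM, 2.48 and 2.5 times higher. Tbc1d20, a Rab1 GTPase-activating protein, was 2.5 and 2.63 times higher. Phkg2, a catalytic subunit of phosphorylase kinase, was 2.35 and 2.46 times higher, Selenow, a selenoprotein, 2.70 and 2.40 times, and Spem2 2.25 and 2.24 times. Ubl4b was 2.23 times higher in Nsun7 KO and 2.33 times in WT. The other genes among the highest 12 were Acte1, Ccdc91, Lrrc51 and Tusc2, at 2.27 to 2.53 times, and Prm2, whose place the ordering itself fixed.

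The lowest ratios, with the same genes left out, were wider. Gstt4, a glutathione transferase, stood at 125 CPM in Nsun7 KO and 68.1 CPM in WT cells of the top range, against 2113 and 1855 CPM in the lowest, 16.9 and 27.2 times lower. Dnajb3, an HSP40-type cochaperone, was at 335 and 244 CPM, against 4975 and 4730 CPM. Hspa1l, a testis HSP70, was at 148 CPM in Nsun7 KO and 87.5 CPM in WT, against 2026 and 1342 CPM. Paqr5, a membrane progestin receptor, was 12.9 times lower in Nsun7 KO and 16.7 times in WT. Retreg1, an ER-phagy receptor, was 13.8 and 28.6 times lower, Svip, an inhibitor of ER-associated degradation, 18.1 and 15.95 times, and Tmsb10, an actin-binding thymosin, 16.4 and 14.4 times. Prm1 was 12.1 times lower in Nsun7 KO and 14.1 times in WT. Tex50, Ms4a5, Tpt1 and Tctex1d1 completed the 12, at 12.3 to 32.2 times lower.

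Of the gene lists with 5 or more counted genes, sperm glycolysis had the highest median in both libraries. Of its 16 genes at 10 CPM or more, Gpi1, Aldoa and Gapdhs were at least 2-fold higher at the Prm2-rich end in both libraries and Slc16a7, a monocarboxylate transporter, was lower, against 1.08% of all 4156 genes higher and 20.7% lower. The list's median log2 ratio was 0.47 in Nsun7 KO and 0.38 in WT, against -0.36 and -0.39 over all genes. Medians above those of all genes were also found for mitochondrial sheath genes, at -0.22 in Nsun7 KO and -0.28 in WT. Manchette and intraflagellar transport genes, at -0.27 and -0.37, lay above them as well. Among 22 genes of the outer dense fibres and fibrous sheath, Oaz3, a testis antizyme, was at least 2-fold higher, and Odf3b, Ropn1, Tekt5 and Cylc2 were lower, 4 of 22 being near the share of all genes. This list's median was -0.23 in Nsun7 KO and -0.45 in WT, and axoneme genes had 0 of 38 higher, 4 lower and medians of -0.42 and -0.32. Odf1 stood at 15891 CPM in Nsun7 KO and 14187 CPM in WT, against 8204 and 7511 CPM. Akap4, the main fibrous sheath anchor of protein kinase A, stood at 5799 and 5904 CPM against 6261 and 6578 CPM.

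The chromatin list had a median below that of all genes. Of 12 testis histones and chromatin proteins counted, 4 were at least 2-fold lower in both libraries, with a median of -0.91 in Nsun7 KO and -0.97 in WT. H1fnt, the testis linker histone, stood at 470 CPM in Nsun7 KO and 378 CPM in WT cells of the top range, against 4177 and 3804 CPM in the lowest. H2al2a, a short H2A variant that enters chromatin with transition proteins in the mouse, stood at 296 and 178 CPM, against 3188 and 3140 CPM. Prm3 stood at 1263 and 1140 CPM, against 5680 and 6094 CPM. Of 13 head-tail coupling genes, 6 were lower, including Spata6, which the mouse needs for the connecting piece, at 555 and 417 CPM against 3686 and 3838 CPM.

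Counts of the other lists are to be read against the 1.08% higher and 20.7% lower among all genes. In the ubiquitin pathway, Ubl4b was higher and 9 of 40 genes were lower, near the share of all genes, among them Rnf133 and Fem1b. Of 22 kinases and phosphatases, Tssk3 and Tssk6 were higher and 8 were lower, including Ppp1cc, the sperm protein phosphatase 1 catalytic subunit, at 56.6 CPM in Nsun7 KO and 79.0 CPM in WT against 394 and 349 CPM. Of 14 redox genes, Selenow was higher and 6 were lower, including the spermatid thioredoxins Txndc2 and Txndc8. Of 21 genes of mRNA storage, 3 were lower, no more than among all genes, including Ybx2, the germ cell Y-box protein that binds stored mRNA, at 670 and 517 CPM against 3663 and 3194 CPM.

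Some RNAs peaked inside the members. Over the 4 ranges in order, Spem1 stood at 2155, 2886, 3852 and 3133 CPM in Nsun7 KO and 1978, 2742, 3505 and 2477 CPM in WT. Spata3 stood at 3591, 4797, 5542 and 3981 CPM in Nsun7 KO and 3264, 4545, 4860 and 3334 CPM in WT. Odf2, the main outer dense fibre protein, stood at 10621, 12983, 12848 and 6661 CPM in Nsun7 KO and 11065, 13519, 11571 and 5843 CPM in WT. For these genes the highest level lay in 1 of the 2 middle ranges in both libraries.

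**Figure D3:**
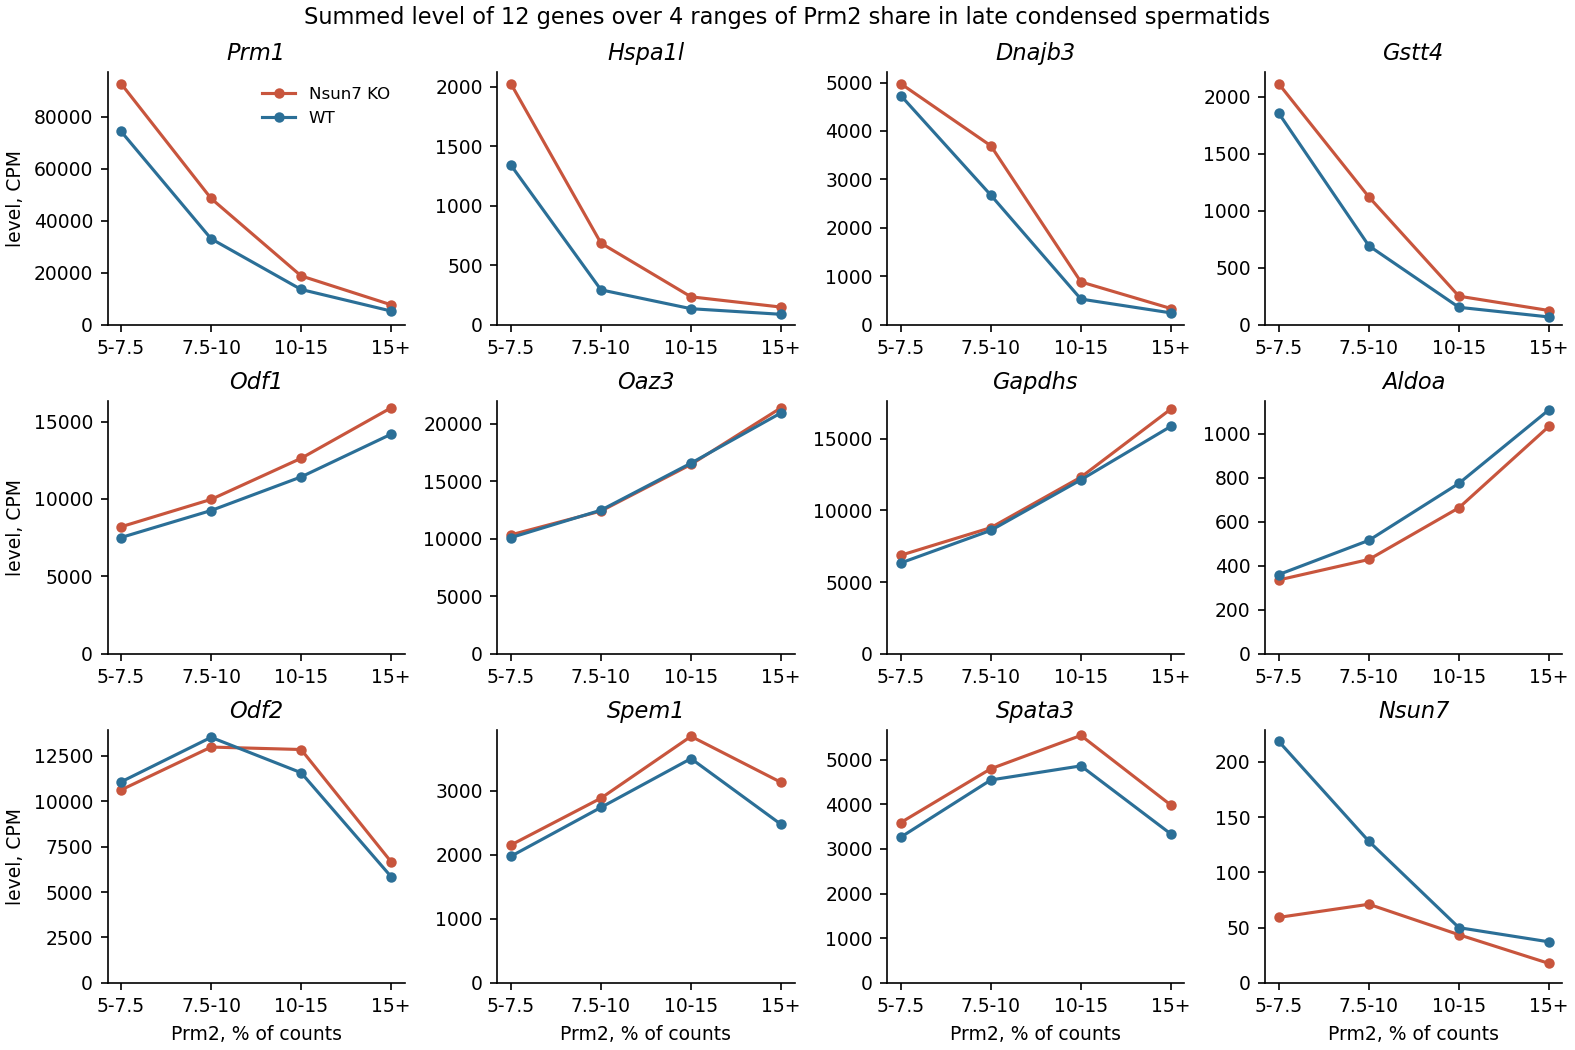
The level of 12 genes in CPM (y axes from 0) is shown over 4 ranges of Prm2 share of counts (x axes) in Nsun7 KO and WT late condensed spermatids, 1 summed value per library and range. The top row falls (Prm1, Hspa1l, Dnajb3 and Gstt4), the middle row rises (Odf1, Oaz3, Gapdhs and Aldoa), and Odf2, Spem1 and Spata3 peak inside. Nsun7 falls over all ranges in WT and is lower in Nsun7 KO in each.

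Late condensed spermatids differed from Tnp1-high cells mainly in what they lacked. Of 1697 genes averaging 50 CPM or higher, 0 were at least 2-fold higher in members in both libraries (0%) and 173 were at least 2-fold lower (10.2%). At 1.5-fold, 210 were higher (12.4%) and 335 lower (19.7%), and 0 genes passed 1.5-fold in opposite directions in the libraries. Prm2 and Tnp1 of these very cells set the classes, so the comparison is a description.

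After Odf1, the highest ratios among named genes belonged to Aldoa at 1.92 times in Nsun7 KO and 1.94 in WT, Picalm, a clathrin assembly protein, at 1.90 and 1.91, and Coil, the Cajal body protein coilin, at 1.94 and 1.88. Fscb, a fibrous sheath protein, was 1.94 and 1.82 times higher, Cul3, a ubiquitin ligase scaffold, 1.90 and 1.81 times, and Oaz3 1.77 and 1.81 times. Catsperg1, a subunit of the CatSper calcium channel of the tail, stood at 102 CPM in Nsun7 KO and 99.6 CPM in WT members, against 54.4 and 53.9 CPM. Chpt1, Tbc1d20, Tssk3 and Tmem267 filled the list, at 1.76 to 1.90 times. With each cell given the same weight, 6 genes passed 2-fold, and with Prm2 at 10% or more 4 did. The absence of such genes thus depends on the settings.

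Among the RNAs lower in members, Tnp1 led by the rule itself, followed by Tex37 at 8.25 times lower in Nsun7 KO and 10.2 in WT. Hmgb4, a testis HMG-box protein, stood at 524 CPM in Nsun7 KO and 367 CPM in WT members, against 4198 and 3109 CPM in Tnp1-high cells. Its free RNA estimate was 220 CPM in Nsun7 KO and 135 CPM in WT. Tnp2 was 6.19 and 7.92 times lower. Haspin, a histone H3 kinase, was 5.09 and 5.40 times lower, Aif1, a calcium-binding protein, 5.74 and 7.10 times, and Spata24 4.98 and 5.30 times. Meig1, a manchette protein that male mice need for fertility, stood at 602 CPM in Nsun7 KO and 635 CPM in WT members, against 2846 and 2583 CPM. Cdca2, Sqor, Spcs2 and Ctag2 were 4.22 to 5.36 times lower.

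**Figure D4:**
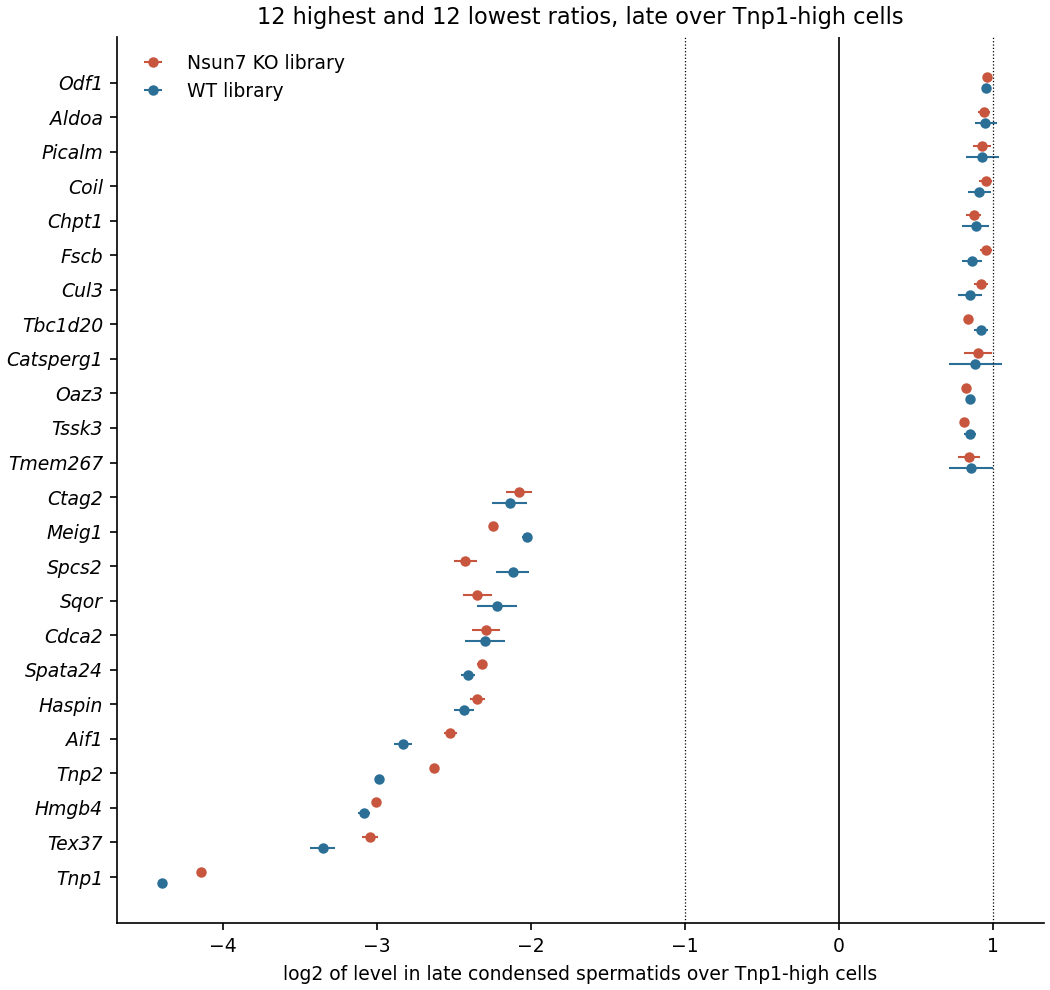
Log2 ratios of summed levels in late condensed spermatids over Tnp1-high cells (x axis) are given for the 12 highest and 12 lowest genes (y axis), in Nsun7 KO and WT, with 95% counting intervals. Dotted lines mark 2-fold. The 12 highest lie between 1.76 and 1.95 times in both libraries and the 12 lowest between 4.07 and 21.1 times lower.

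Between the 2 stages the lists moved modestly. Sperm glycolysis had a median log2 ratio of 0.46 against 0.04 over 4320 genes, with 6 of 16 genes at least 1.5-fold higher (5.69% of all genes) and Ldha, the somatic lactate dehydrogenase, lower (15.6% of all genes). Outer dense fibre and fibrous sheath genes had a median of 0.25, with 5 of 23 higher and 6 lower. Testis histones and chromatin proteins had a median of -0.37, with 0 of 13 higher and 6 lower. Of 74 ribosomal protein genes, 13 were at least 2-fold lower in both libraries, against 6.9% of all genes, and 0 were higher. They summed to 20220 CPM in Nsun7 KO and 20442 CPM in WT members, against 20931 and 21660 CPM in Tnp1-high cells. Mitochondrially encoded genes differed in opposite directions in the 2 libraries, at 3384 CPM in Nsun7 KO and 3558 CPM in WT members, against 2688 and 5335 CPM. Genes of the X chromosome held 1.86% of counts in Nsun7 KO and 1.90% in WT members, against 1.83% and 1.92%.

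Of the highest 12 and lowest 12 genes, 10 each had a promoter sequence. TGANNTCA was present in 2 of the 10 higher ones (Fscb and Tmem267) and in 4 of the 10 lower ones (Aif1, Hmgb4, Meig1 and Tnp1). It was present in 11.6% of all promoters, and Tnp1 is among the lower genes by the rule. TATAAA or TATATA was present in 1 higher gene (Catsperg1) and 2 lower ones (Aif1 and Tnp2), against 11.2% of all promoters. With 10 genes in each group, no difference was tested.

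The targeted gene was measured first in the comparison of genotypes. Nsun7 (chromosome 5, 66259897 to 66298026, plus strand) stood at 57.2 CPM in Nsun7 KO members (interval 54.2 to 60.2, 1425 counts) and 133 CPM in WT members (128 to 138, 2992 counts), 2.33 times lower (2.18 to 2.48). After thinning, 5.10% of Nsun7 KO and 11.7% of WT members had an Nsun7 count (39.8% and 50.8% unthinned), against 0.592% and 1.90% of Leydig-gene-rich cells. The RNA was thus lower in the Nsun7 KO library but present, and the sources available here do not say which part of the gene was deleted, so counts from outside that part cannot be told apart. Over the 4 Prm2 ranges Nsun7 stood at 59.3, 71.2, 43.6 and 17.6 CPM in Nsun7 KO and 219, 128, 49.95 and 37.1 CPM in WT. The gap between the libraries was wide in the first range and narrow in the range of 10 to 15%, and over all members with Prm2 at 10% or more the log2 ratio was -0.28 instead of -1.15. Among Tnp1-high cells it stood at 47.0 CPM in Nsun7 KO and 183 CPM in WT.

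Late condensed spermatids of the 2 libraries were otherwise alike in the RNAs they hold most of, apart from Prm1, at 5.85% of counts in Nsun7 KO and 4.04% in WT. Of 1612 genes averaging 50 CPM or higher, 0 were at least 2-fold higher in Nsun7 KO (0%) and 19 were at least 2-fold lower (1.18%). At 1.5-fold, 14 were higher (0.868%) and 49 lower (3.04%). Trimmed mean scaling moved the values by 0.40 on the log2 scale, the split then being 14 higher and 5 lower at 2-fold, so directions below are relative to the total count. Odf1 stood at 1.05 times the WT level, Spem1 at 1.07 times, Spata3 at 1.10 times, Bpifa3 at 0.989 times and Ubl4b at 0.850 times.

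The 12 named RNAs above WT in Nsun7 KO leave out predicted genes (Gm and Rik) and genes whose sign differed among ranges of Tnp1. All 12 were lower in members with Prm2 at 15% or more than in members with Prm2 at 5 to 7.5%, in both libraries. A lower level there was common to most genes. The median log2 ratio between these ends over 4156 genes was -0.36 in Nsun7 KO and -0.39 in WT. Prm1, which is not among the 12, stood at 58544 CPM in Nsun7 KO and 40391 CPM in WT, 1.45 times higher. Hspa1l stood at 1124 CPM in Nsun7 KO and 613 CPM in WT, 1.83 times higher (1.79 to 1.87). Paqr5 stood at 683 CPM in Nsun7 KO and 409 CPM in WT, 1.67 times higher. Rffl, a ubiquitin ligase, stood at 206 and 120 CPM, Odf3b at 118 and 69.5 CPM, and Tex50 at 122 and 71.6 CPM. Tex37, Tnp2, Defb33, Tnp1, Chn2, Siah2 and Nqo2 made up the 12, at 1.49 to 1.72 times.

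The mix of members differed between the libraries along with these genes. Tnp1 is used by the rule, and its free RNA estimate differed between the libraries, at 0.265% of counts in Nsun7 KO and 0.157% in WT, so a mix of Tnp1 ranges need not match stages. With both libraries weighted to 1 mix of Tnp1 ranges, the log2 ratio of Hspa1l was 0.24 instead of 0.87 and that of Prm1 0.12 instead of 0.54. Under 1 mix of Prm2 ranges these were 0.73 and 0.40, and all 12 genes were higher in Nsun7 KO in each of the 4 Prm2 ranges. These 12 were picked from the same cells for high ratios, so their agreement over ranges of those cells follows largely from the choice. In Leydig-gene-rich cells Hspa1l stood at 143 CPM in Nsun7 KO and 78.4 CPM in WT. How much of the difference the mix of cells makes was not tested further.

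The RNAs lower in Nsun7 KO stood at low levels, and for most the free RNA estimate was a large part of the WT level. Calm2, a calmodulin gene with close copies that reads may be split between, stood at 21.0 CPM in Nsun7 KO and 79.6 CPM in WT members, 3.80 times lower (3.44 to 4.19). Tuba3b, a testis alpha-tubulin, stood at 34.9 and 120 CPM, and its near-identical copy Tuba3a at 34.9 and 115 CPM, so that reads may be split between them. Nasp, a histone chaperone, stood at 43.3 CPM in Nsun7 KO and 134 CPM in WT. Lyar, a nucleolar protein, stood at 70.4 CPM in Nsun7 KO and 203 CPM in WT.

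Leydig-gene-rich cells differed in the same direction. Tuba3b stood there at 18.9 CPM in Nsun7 KO and 132 CPM in WT. Lyar stood there at 68.7 CPM in Nsun7 KO and 248 CPM in WT. In members the free RNA estimate of Lyar was 35.4 CPM in Nsun7 KO and 192 CPM in WT, that of Calm2 9.78 and 53.5 CPM, and that of Nsun7 2.45 and 13.9 CPM. Pabpc1, a poly(A)-binding protein, Gkap1, Hsp90aa1, Cfap36 and Ybx1 were 2.25 to 2.69 times lower in Nsun7 KO members. After the free RNA estimate was subtracted, 1 gene remained at least 2-fold lower, Nsun7, and 0 were higher.

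**Figure D5:**
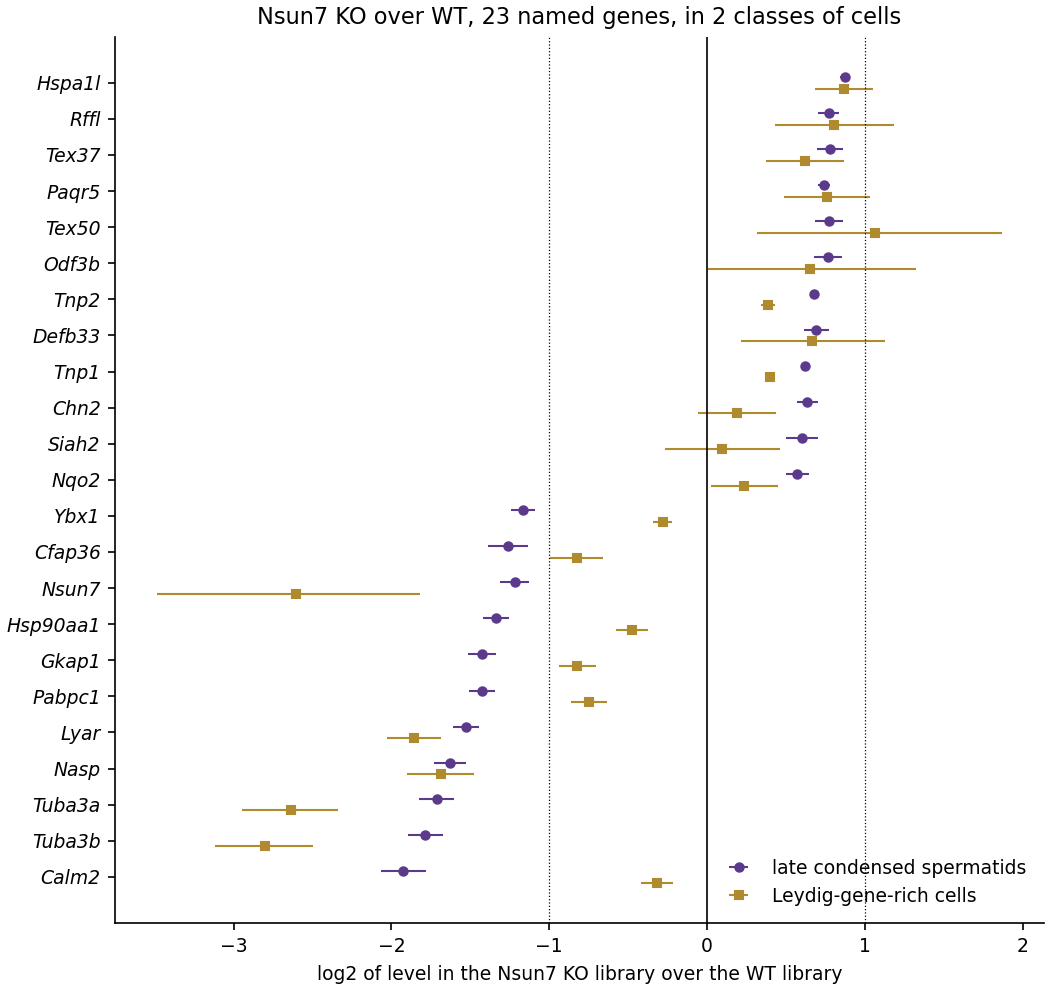
Log2 ratios of summed levels in the Nsun7 KO library over the WT library (x axis) are given for 23 named genes (y axis) in late condensed spermatids (circles) and Leydig-gene-rich cells (squares), with 95% counting intervals. Dotted lines mark 2-fold. All 11 lower genes shown are also below 0 in Leydig-gene-rich cells, and all 12 higher genes are above 0 there, with intervals that include 0 for Chn2 and Siah2.

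Lists gave small differences between the libraries, beside a median of -0.07 over 4285 genes at 10 CPM or more, of which 0.42% were at least 1.5-fold higher and 11.7% lower. Of 21 mRNA storage genes, 11 were lower in Nsun7 KO, with a median log2 ratio of -0.61 that became 0.05 after the free RNA estimate was subtracted. Ybx2 stood at 3243 CPM in Nsun7 KO and 2490 CPM in WT members and was not among them. Of 37 axoneme genes 14 were lower, with a median of -0.40 that was 0 to 2 decimals with either subtraction of free RNA or trimmed mean scaling. Of 23 outer dense fibre and fibrous sheath genes 4 were lower and Odf3b was higher, with a median of -0.04. Of 16 glycolysis genes Ldhal6b, Ldha and Slc2a3 were lower, with a median of -0.13. Head-tail coupling genes had 0 of 13 in either direction and a median of 0.08, and kinases and phosphatases 0 of 22 and a median of -0.07. Of 5 counted genes of the m5C list, which holds RNA cytosine methyltransferases and readers, Nsun7 and Ybx1 were at least 1.5-fold lower, while Nsun4 stood at 370 CPM in Nsun7 KO and 367 CPM in WT.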

How the data were processed

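Count matrices of 1 Nsun7 KO and 1 WT library were deposited. Per the submitters' processing notes PISA v0.12 and GRCm38 were used, and the aligner settings, annotation and barcode filter are not stated. Values are whole-number counts per gene and barcode, raw as deposited, and the smallest barcode total is 1001 counts. Members and gene lists were chosen with earlier results of these data known. For each library, the counts of a class of cells were added up and scaled to CPM, with exact Poisson intervals for levels, exact conditional binomial intervals for ratios and Clopper-Pearson intervals for shares. Genes were ranked by log2 ratios with a prior of 5 CPM at a mean of 50 CPM or more. The 12 highest and 12 lowest of each comparison are named, leaving out predicted (Gm and Rik), mt- and ribosomal protein genes, for Nsun7 KO over WT genes without 1 sign in every Tnp1 range with 100 or more cells, and 1 gene that is not reported here, and the 20 lists count genes at 10 CPM or more. Leydig-gene-rich cells had 200 or more genes, mt- genes at 20% or less, Prm2 under 5% and 6 Leydig genes at 1% or more. Doublets were called with scanpy 1.11.5 and kept. Barcode names are counters, 2168 of which occur in both libraries, so shared names do not show shared cells. The software was Python 3.11.15, numpy 2.4.6, scipy 1.17.1, pandas 2.3.3 and matplotlib 3.10.9. In all, 17 other settings were tried, 15 of them chosen beforehand, and ranges of Prm2 were added after seeing the data.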

Additional observations from a re-analysis of the deposited data

Results flagged for a closer look

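Barcodes that met the Prm2 and Tnp1 thresholds but had over 5% of counts from mitochondrially encoded genes were left out of the members, 88 in the Nsun7 KO library and 49 in the WT library. With mt- shares up to 20% there were 73 in Nsun7 KO and 46 in WT, with median totals of 6817 and 6944 counts and median Prm2 shares of 7.13% and 6.64%. Above 20% there were 15 in Nsun7 KO and 3 in WT, with median Prm2 shares of 6.78% and 7.36%. What these barcodes hold was not tested.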

How the results depend on the processing

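The share of kept cells that were late condensed spermatids was lower in Nsun7 KO by 0.911 percentage points. The difference was -2.42 with Tnp1 under 0.5% and 0.835 with mt- genes at up to 20%, where its sign turned. Per 100 Prm2-rich cells the difference of -28.0 became -31.2 with Tnp1 under 0.5% and 0.0489 with Prm2 at 10% or more, where late cells were 99.18% in Nsun7 KO and 99.13% in WT and the measure is saturated. The cause of the turn with mt- genes was not tested.

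Of genes 2-fold apart between Nsun7 KO and WT members, 0 were higher as reported. This count was 3 with Prm2 at 10% or more, 14 with trimmed mean scaling and 2 from 10 CPM. The 19 lower genes became 5 with trimmed mean scaling, 1 with free RNA subtracted, 125 from 10 CPM and 0 from 200 CPM. With free RNA subtracted the log2 ratio turned positive for Lyar (1.35), Pabpc1 (0.29), Gkap1 (0.0923) and Cfap36 (0.32). Between members and Tnp1-high cells, 0 higher genes became 4 with Prm2 at 10% or more and 6 with each cell weighing the same, and 173 lower genes became 298 from 10 CPM and 61 from 200 CPM. Between the Prm2-rich and Prm2-poor ends, 44 higher genes became 158 with trimmed mean scaling and 21 with each cell weighing the same, and 473 lower genes became 859 from 10 CPM and 182 from 200 CPM. The counts from 10 and 200 CPM cover more and fewer genes by construction, and the other causes were not tested. Of 96 counts and shares recomputed, 77 stayed within their limits, as did 416 of 520 list medians, which moved by under 0.1 on the log2 scale. Of 791 log2 ratios of named genes, 442 stayed within their counting interval, 345 moved beyond it and 4 reversed.

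No paired analysis was possible because each genotype has 1 library. Depth limits low genes most, and intervals do not cover differences between animals or preparations.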
